A study of Mus musculus with 8 samples.

Results

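The enzymes and transporters that carry glucose to lactate, and those of the pentose phosphate pathway, were followed in AtT20 cells incubated without or with HX630. The 37 genes were listed by name: 32 of uptake, glycolysis, fructose 2,6-bisphosphate, lactate formation and lactate transport, 1 that makes glucose 1,6-bisphosphate (Pgm2l1), and 4 of the pentose phosphate pathway. All 37 had at least 1 probe on the array, out of 19751 genes that could be named, and all 37 passed the filter on dim probes, out of 15319 genes. Of their 56 probes, 54 were tested.

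Glycolysis splits glucose into pyruvate in a row of enzymatic steps, and lactate dehydrogenase turns pyruvate into lactate, which monocarboxylate transporters carry out of the cell. Several steps can be run by more than 1 isoenzyme, each from its own gene and each typical of certain tissues. The pentose phosphate pathway branches off at glucose 6-phosphate and yields NADPH and ribose. Many tumor cells use glycolysis heavily even where oxygen is at hand.

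AtT20 is a line of mouse pituitary tumor cells of the corticotroph type, which make pro-opiomelanocortin and secrete ACTH, and HX630 is a synthetic pan-agonist of the retinoid X receptors, nuclear receptors that bind DNA alone or with other nuclear receptors. All cells were kept in DMEM with 1% stripped fetal bovine serum, and total RNA was taken after 48 hr from 4 control samples without HX630 and 4 samples with HX630 at 10 μM. The 8 samples went on 8 one-color arrays. The labels do not say that they came from separate cultures, so p-values measure the spread between these samples, which may be technical.

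Signals are given as log2 of the processed intensity minus that of the 75th percentile of the array, so that a signal of 0 stands for that percentile. The percentile lay between 1335 and 1899 intensity units, 69.7% to 73.5% of the probes were well above background, and 0 probes were saturated. The 4 control arrays shared 1 slide and the 4 HX630 arrays another, and each slide had its own scan. Treatment therefore cannot be told apart from slide or scan. All 8 probes of the 6 corticotroph markers were well above background on all 8 arrays. Of the other pituitary endocrine markers, 2 of 6 probes were well above background on all arrays and 2 on none (Prl and Tshb), and of the non-endocrine markers 4 of 7 on all and 1 on none (S100b). The log2 of the summed signal of the corticotroph markers was 8.24 to 8.56 on the control arrays and 7.78 to 7.84 on the HX630 arrays, that of the other pituitary markers -2.82 to -1.93 and -2.55 to -2.38, and that of the non-endocrine markers -1.18 to -1.12 and -1.59 to -1.41. The sum of the corticotroph markers follows its brightest member, Pomc, and its members did not move together: Pcsk1 was called lower (log2 -2.06), while both probes of Neurod1 (0.68 and 0.72) and of Crhr1 (1.11 and 1.23) were called higher. The part of these shifts in the results was not tested. In bulk RNA, fewer cells of a type and less RNA per cell cannot be told apart.

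Most of the glycolytic genes fell with HX630, while of the 4 pentose phosphate genes 1 rose and 0 fell. A gene was called when its brightest tested probe had an adjusted p below 0.01 in limma and a fold change above 1.5. Of the 37 genes, 21 were called lower, against 11.2% of all genes tested. One of them, Pfkfb3, had no HX630 array well above background and passed the filter through the control arrays alone, which leaves 20 that were measured in both groups. Only Pgm2l1 and Pgd of the 37 were called higher, against 8.38% of all genes tested, and 14 genes were not called. In either direction 19.5% of all genes tested were called. The 21 genes that fell all belonged to the 32 genes of uptake, glycolysis, fructose 2,6-bisphosphate and lactate, of which 0 were called higher by limma and 11 were not called. Without the fold threshold and at an unadjusted p below 0.05, limma put 26 of the 32 lower and 6 higher. The share of all genes at that cut was not counted. With no fold threshold and an adjusted p below 0.01 in limma, 7245 of the 28552 probes tested were lower and 5763 higher. The methods' t-test, with the fold threshold, called 21 of the 32 lower and 0 higher. With scaling to the spike-in probes in place of the 75th percentile, 18 of the 37 genes were called lower and 6 higher, against 6.77% and 16.2% of all genes tested. The 6 of 37 called higher were thus near the share over all genes. That scaling moved the median change of all genes from -0.03 to 0.18 on the log2 scale.

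The median log2 fold change was -0.75 over the 37 genes and -0.93 over the 32, against -0.03 over all genes tested. Both medians were the same with Pfkfb3 at its bound (-0.75 and -0.93). The HX630 and control arrays did not overlap for 35 of the 37 genes, 25 lower and 10 higher with HX630, while 61.5% of all genes tested had groups that did not overlap (32.8% lower and 28.6% higher). In the other two, Pfkfb2 and Pgam2, the groups overlapped. Of the genes measured in both groups, those with the largest fall were Hk2, Eno3, Ldhb, Slc2a1 and Slc16a3, at log2 fold changes of -3.18, -3.16, -3.06, -2.55 and -2.22, which placed each of them among the lowest 1% of all genes tested. Pgm2l1, the gene with the largest rise, lay above 98.0% of all genes.

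**Figure D1:**
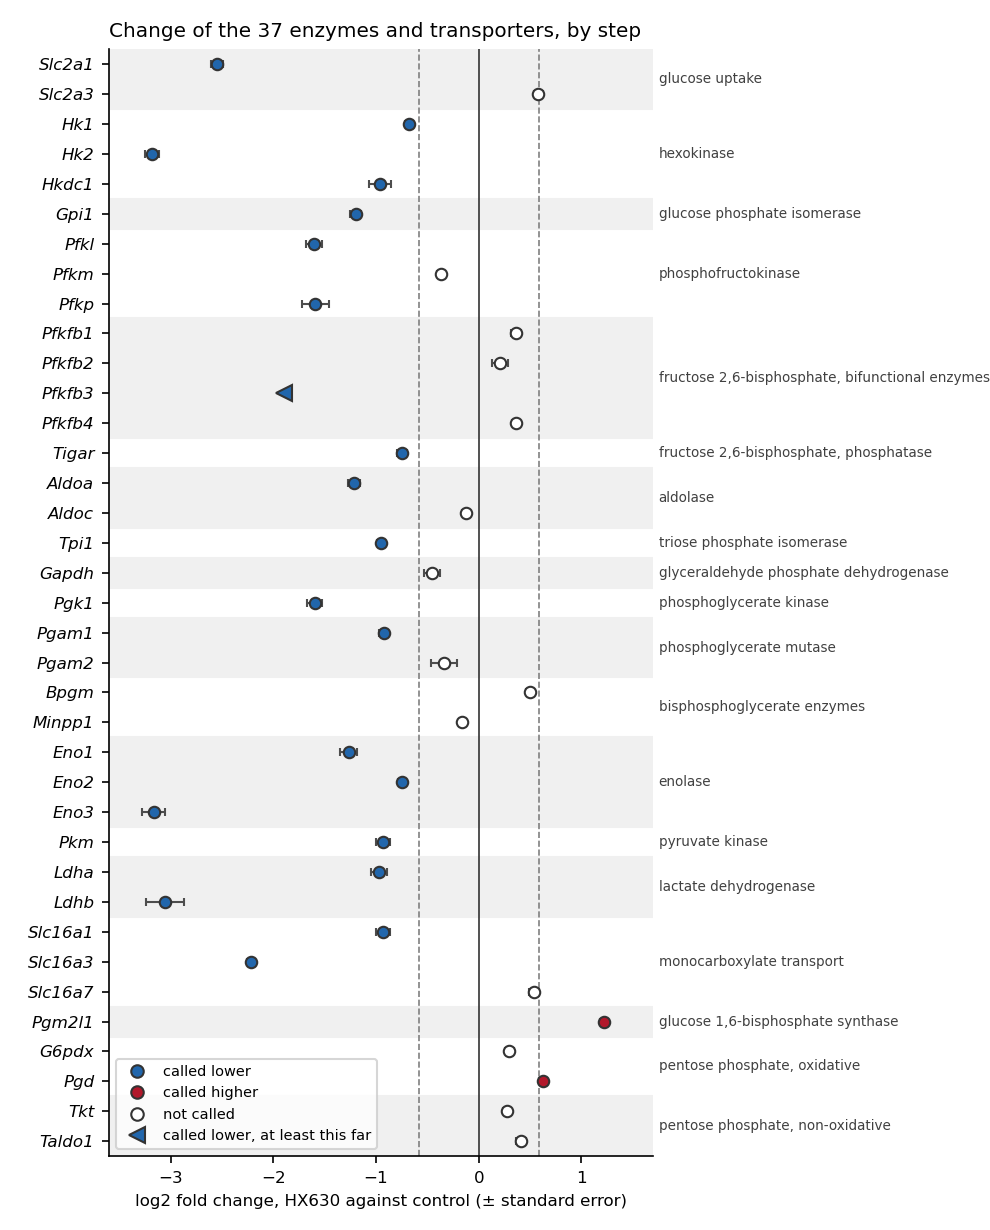
Log2 fold change of each of the 37 genes (HX630 against control, brightest tested probe, n = 4 arrays per group), ordered by step; bars are standard errors, the triangle is the bound for Pfkfb3 (at least 3.73-fold lower), dashed lines mark the 1.5-fold threshold, and filled points are called lower (blue) or higher (red). The 21 genes called lower stand left of the threshold from glucose uptake to lactate transport, and the 4 pentose phosphate genes at the bottom all lie right of 0.

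Promoters were looked up because so many genes of a single pathway fell together. Windows of 300 bases, from 250 before to 50 after an annotated start, were taken from RefSeq on GRCm38.p6 for 35 of the 37 genes, which gave 53 windows. Slc2a3 and Slc16a7 were not matched. Windows of the same gene can overlap, as for Eno1 and Aldoa, and a match that they share was then counted in each. The windows were searched on both strands for ACGTG and GCGTG, the core letters bound by hypoxia-inducible factors, whose best known targets include glycolytic genes. Either word was found in 39 of the 53 windows (73.6%), against 43.8% of all 32851 windows of this length. Among the genes called lower it was found in 22 of 29 windows (75.9%), among those not called in 15 of 21 (71.4%), and among the 2 called higher in 2 of 3 (66.7%). These are matches of letters and not measured binding. The genes were listed by a pathway for which these factors are known, so the share over their windows cannot bear on HX630. A part of these factors in the changes was not tested. Windows of 7 genes are printed, 5 that stand for a step with a large fall or rise, and Eno3 and Eno2 as the pair of enolases that differed most. Each is written 5′ to 3′ on the strand of its gene, and capitals mark ACGTG or GCGTG, or the same word read on the opposite strand (CACGT or CACGC).
Slc2a1, chr4:119108495-119108794, plus strand: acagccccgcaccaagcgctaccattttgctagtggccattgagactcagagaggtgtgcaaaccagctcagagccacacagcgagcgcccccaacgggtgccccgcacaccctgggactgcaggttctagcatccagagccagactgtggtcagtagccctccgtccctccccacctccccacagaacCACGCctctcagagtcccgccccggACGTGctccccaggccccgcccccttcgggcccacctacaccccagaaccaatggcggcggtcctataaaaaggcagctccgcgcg
Hk2, chr6:82774405-82774704, minus strand: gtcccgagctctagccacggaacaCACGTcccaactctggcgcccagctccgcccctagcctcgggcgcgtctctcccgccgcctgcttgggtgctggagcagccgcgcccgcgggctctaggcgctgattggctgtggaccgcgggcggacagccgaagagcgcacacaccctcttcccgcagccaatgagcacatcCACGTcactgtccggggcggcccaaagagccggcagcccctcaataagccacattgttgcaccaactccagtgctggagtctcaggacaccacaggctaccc
Pgk1, chrX:106186850-106187149, plus strand: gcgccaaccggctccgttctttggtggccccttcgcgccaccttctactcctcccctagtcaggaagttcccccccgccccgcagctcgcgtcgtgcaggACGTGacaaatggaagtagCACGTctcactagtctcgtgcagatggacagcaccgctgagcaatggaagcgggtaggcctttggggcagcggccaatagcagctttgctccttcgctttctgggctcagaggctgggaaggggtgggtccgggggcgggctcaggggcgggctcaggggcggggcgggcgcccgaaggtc
Eno3, chr11:70656926-70657225, plus strand: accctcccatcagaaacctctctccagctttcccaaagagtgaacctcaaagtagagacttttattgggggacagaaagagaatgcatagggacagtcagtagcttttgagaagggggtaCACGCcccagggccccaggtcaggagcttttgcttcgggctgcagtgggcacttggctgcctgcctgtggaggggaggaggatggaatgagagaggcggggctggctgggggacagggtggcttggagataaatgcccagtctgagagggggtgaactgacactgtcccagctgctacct
Eno2, chr6:124769624-124769923, minus strand: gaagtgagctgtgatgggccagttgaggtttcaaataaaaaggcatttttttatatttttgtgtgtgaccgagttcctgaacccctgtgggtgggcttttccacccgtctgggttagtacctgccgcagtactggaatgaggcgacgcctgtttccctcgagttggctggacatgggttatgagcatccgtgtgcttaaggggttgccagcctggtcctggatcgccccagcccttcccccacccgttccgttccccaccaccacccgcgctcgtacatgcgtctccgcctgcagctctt
Slc16a3, chr11:120948817-120949116, plus strand: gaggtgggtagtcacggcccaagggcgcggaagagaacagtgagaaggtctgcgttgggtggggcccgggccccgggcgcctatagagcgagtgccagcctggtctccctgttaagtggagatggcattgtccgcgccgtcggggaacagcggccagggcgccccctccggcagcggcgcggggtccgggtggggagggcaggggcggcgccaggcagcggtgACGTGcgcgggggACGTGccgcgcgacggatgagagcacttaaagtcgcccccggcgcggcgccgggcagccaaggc
Pgm2l1, chr7:100227357-100227656, plus strand: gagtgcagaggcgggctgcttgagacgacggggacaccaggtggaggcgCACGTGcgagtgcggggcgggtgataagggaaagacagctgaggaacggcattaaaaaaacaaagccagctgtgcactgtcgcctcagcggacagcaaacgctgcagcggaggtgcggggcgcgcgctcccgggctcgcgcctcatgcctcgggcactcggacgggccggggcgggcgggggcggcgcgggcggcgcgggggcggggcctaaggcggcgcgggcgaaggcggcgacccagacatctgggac
The Slc2a1 window held 1 ACGTG and 1 GCGTG, those of Hk2, Pgk1 and Slc16a3 held 2 ACGTG each, and that of Eno3 held 1 GCGTG. The Eno2 window held neither word. Among the genes called lower and not printed, the windows of Gpi1, Tpi1 and Tigar also held neither. Ldhb and Pfkl, not printed, fell at least as far as Pgk1, and their windows held 1 GCGTG each. In the Pgm2l1 window, the palindrome CACGTG holds ACGTG on both strands and was counted on each.

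Glucose enters the cell through facilitative transporters, of which Slc2a1 encodes GLUT1 and Slc2a3 encodes GLUT3, known from neurons. Slc2a1 had log2 signals of 2.99, 3.12, 3.03 and 3.00 on the control arrays and 0.60, 0.47, 0.50 and 0.38 on the HX630 arrays. The groups were far apart, and Slc2a1 fell 5.84-fold (log2 fold change -2.55, SE 0.0561, limma adjusted p = 9.11e-08). Slc2a3 was at -2.93, -2.81, -2.89 and -2.94 on the control arrays and -2.30, -2.26, -2.29 and -2.38 on the HX630 arrays, which put all HX630 arrays above all controls. Its log2 fold change of 0.58 (SE 0.0439, adjusted p = 1.62e-05) was 1.49-fold, just under the threshold of 1.5, so it was not called. It passed the threshold under 4 other scalings (0.63 with quantile normalization, 0.67 with the median, 0.60 with the percentile of detected probes and 0.80 with the spike-in probes) and without control replicate 2 (0.61) or HX630 replicate 4 (0.60). Within each array, the signal of Slc2a1 minus that of Slc2a3 was 5.91, 5.93, 5.92 and 5.93 on the controls and 2.91, 2.74, 2.79 and 2.76 with HX630. This difference between the transporters shifted by -3.13 (exact 97.1% interval -3.19 to -3.01).

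Such differences within an array do not depend on a factor applied to a whole array, and they were compared for the 22 pairs of isoenzymes or related transporters of a step. Each was tested with a two-sided exact permutation test over the 70 regroupings of the 8 arrays, whose smallest possible p is 0.0286. In 17 of the 22 pairs the groups did not overlap, which gave p = 0.0286 in the exact permutation test and 0.037 after Benjamini-Hochberg adjustment over the 22 pairs. Of these, 3 compare Pfkfb3, whose HX630 signals were not above background, with another form. Among the 19 pairs measured in both groups, 14 were apart. How often pairs of other genes are apart was not counted, so these counts have no share to be set against. Of all single genes tested, 61.5% had groups that did not overlap. The pairs that did not pass were Hk1 with Hkdc1, Pfkl with Pfkp, and the 3 pairs among Pfkfb1, Pfkfb2 and Pfkfb4. When probes had to be well above background on all 8 arrays, 13 pairs were apart, since pairs with Pfkfb3 or Pgam2 could not be formed. Without control replicate 2 the groups were also apart for Pfkfb1 minus Pfkfb2 (a shift of 0.23) and Pfkfb2 minus Pfkfb4 (-0.21), and without HX630 replicate 1 for Hk1 minus Hkdc1 (0.39). Differences between the signals of different probes carry no meaning of their own, and only their shift is used.

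**Figure D2:**
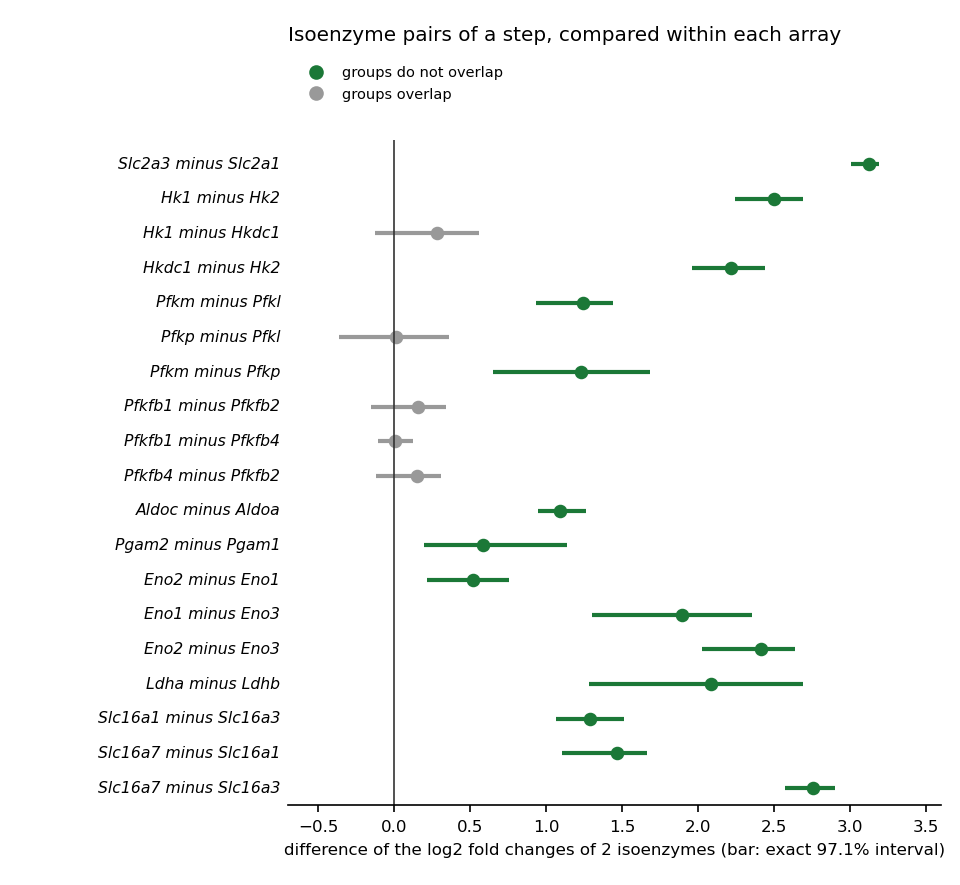
Difference between the log2 fold changes of 2 isoenzymes of a step (x axis, log2 scale) for the 19 pairs measured in both groups, each turned so that the gene with the higher change comes first; points are estimates and bars exact 97.1% intervals from 4 arrays per group. The 14 green pairs have groups that do not overlap, and the intervals of the 5 grey pairs include 0.

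The hexokinases trap glucose in the cell as glucose 6-phosphate. Hk2, the inducible form of muscle, fat and many tumors, was at 2.02, 1.89, 2.12 and 2.05 on the control arrays and -1.02, -1.18, -1.26 and -1.19 on the HX630 arrays. It fell 9.07-fold (log2 fold change -3.18, SE 0.0680, adjusted p = 8.92e-08), with no overlap. Hk1, the form of brain and most other tissues, was at 4.67, 4.63, 4.68 and 4.71 without and 3.97, 3.98, 3.98 and 4.07 with HX630, a smaller fall of 1.60-fold (log2 -0.68, SE 0.0371, adjusted p = 2.76e-06). The change of Hk1 did not pass the fold threshold with quantile normalization (-0.58), spike-in scaling (-0.46) or normexp background correction (-0.54). Hkdc1, a further hexokinase, fell at a dim signal (log2 -0.96, SE 0.104, adjusted p = 0.000119). All 3 hexokinases were thus called lower. Hk2 fell further than Hk1, with a shift of Hk1 minus Hk2 by 2.50 (exact 97.1% interval 2.25 to 2.69), and further than Hkdc1, with a shift of Hk2 minus Hkdc1 by -2.22 (-2.44 to -1.96). Between Hk1 and Hkdc1 the shift was 0.28 (-0.13 to 0.56), which did not pass the test.

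Gpi1, which turns glucose 6-phosphate into fructose 6-phosphate, was at 7.00, 7.09, 6.95 and 6.88 on the control arrays and 5.86, 5.76, 5.76 and 5.74 on the HX630 arrays. It fell 2.30-fold (log2 -1.20, SE 0.0535, adjusted p = 1.03e-06), and its 3 probes lay between -1.20 and -1.08. Phosphofructokinase, the committed step, is a tetramer of liver (Pfkl), muscle (Pfkm) and platelet (Pfkp) subunits. Pfkl was at 1.49, 1.80, 1.75 and 1.56 on the controls and 0.05, 0.03, 0.12 and -0.02 with HX630. It fell 3.04-fold (log2 -1.60, SE 0.0752, adjusted p = 1.29e-06), and Pfkp by much the same 3.01-fold (log2 -1.59, SE 0.130, adjusted p = 2.41e-05). Pfkm was at 2.53, 2.52, 2.42 and 2.42 without and 2.14, 2.11, 2.10 and 2.09 with HX630, so that the groups did not overlap, but its log2 change of -0.36 (SE 0.0393, adjusted p = 0.000117) was under the fold threshold. Pfkl minus Pfkm shifted by -1.24 (exact 97.1% interval -1.44 to -0.93) and Pfkm minus Pfkp by 1.23 (0.65 to 1.68). No difference was found between Pfkl and Pfkp, at a shift of -0.01 with an interval from -0.36 to 0.37. The dimmer of the 2 Pfkp probes fell less, by 0.66 on the log2 scale, and with the mean of all tested probes of a gene the shift of Pfkl minus Pfkp was -0.48, with no overlap of the groups, and that of Pfkm minus Pfkp was 0.76.

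Fructose 2,6-bisphosphate is the strongest activator of phosphofructokinase, and the bifunctional Pfkfb enzymes make and degrade it. Pfkfb3, the form with the highest kinase activity relative to its phosphatase, was at -5.32, -5.17, -5.05 and -5.13 on the control arrays, dim but well above background on all 4. On the HX630 arrays it read -8.50, -9.02, -8.94 and -9.01 and was not well above background on any, so only a bound holds there. Against the lowest signal that was well above background on each array, Pfkfb3 was at least 3.73-fold lower with HX630 (limma adjusted p = 3.23e-07, from a test that set signal against background). Its second probe was not well above background on any array. The other forms had changes above 0, and none of them was called. Pfkfb1, the liver and muscle form, was at -1.09, -1.17, -1.26 and -1.24 on the controls and -0.77, -0.81, -0.88 and -0.86 with HX630 (log2 change 0.36, SE 0.0495, adjusted p = 0.000432). Pfkfb4 had the same change to 2 decimals (log2 0.36, SE 0.0404, adjusted p = 0.000144), and Pfkfb2 was at 0.21 (SE 0.0780, adjusted p = 0.0515). The shifts among them were -0.15 for Pfkfb2 minus Pfkfb4 (exact 97.1% interval -0.31 to 0.12), 0.16 for Pfkfb1 minus Pfkfb2 (-0.155 to 0.34) and 0.003 for Pfkfb1 minus Pfkfb4 (-0.10 to 0.12), and no pair passed the test. Their differences from Pfkfb3 have no defined size, since its HX630 signals lay below background. Tigar, a phosphatase that degrades fructose 2,6-bisphosphate, was at 2.09, 1.99, 1.92 and 2.00 on the control arrays and 1.33, 1.29, 1.19 and 1.21 on the HX630 arrays. Tigar fell 1.68-fold (log2 -0.75, SE 0.0492, adjusted p = 7.46e-06), a call lost with spike-in scaling (-0.53).

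**Figure D3:**
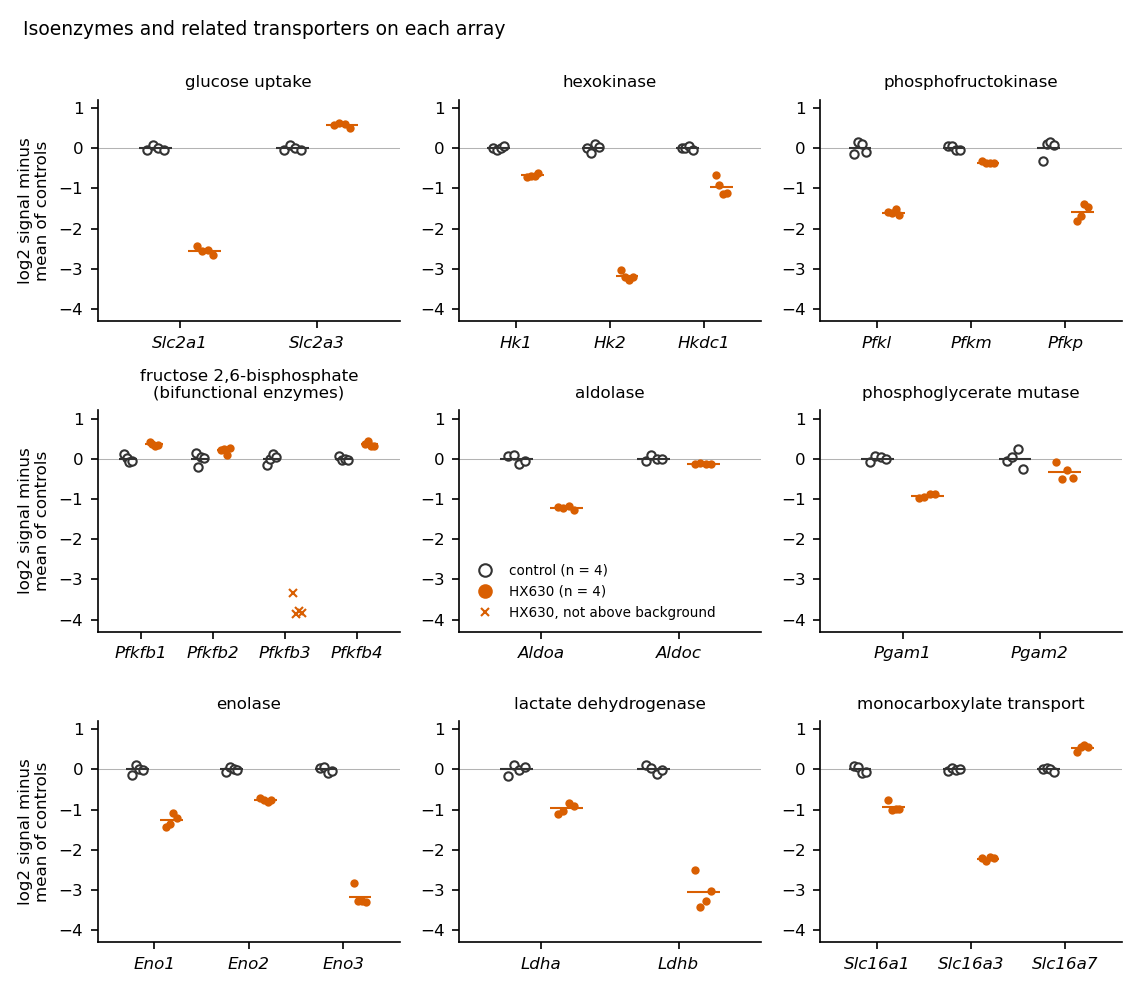
Log2 signal of isoenzymes and related transporters on each array minus the mean of the 4 control arrays of that gene, by step; open circles are control arrays, filled circles HX630 arrays (n = 4 each) lines group means, and crosses the HX630 signals of Pfkfb3, which were not well above background and have no defined size. Slc2a1, Hk2, Eno3, Ldhb and Slc16a3 lie far below 0 with HX630, while Slc2a3, Pfkfb1, Pfkfb4 and Slc16a7 lie above it.

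Aldolase splits fructose 1,6-bisphosphate. Aldoa, the form of muscle and most tissues, was at 8.14, 8.18, 7.95 and 8.01 on the control arrays and 6.88, 6.85, 6.89 and 6.80 on the HX630 arrays, and fell 2.32-fold (log2 -1.21, SE 0.0580, adjusted p = 1.42e-06). Aldoc, the brain form, was at 4.59, 4.73, 4.63 and 4.64 without and 4.51, 4.55, 4.53 and 4.51 with HX630. These groups lay close together, with a log2 change of -0.12 (SE 0.0391, adjusted p = 0.026) that was not called and whose sign turned with quantile normalization (0.01) and spike-in scaling (0.09). Aldoa minus Aldoc shifted by -1.09 (exact 97.1% interval -1.26 to -0.94). Tpi1, which interconverts both triose phosphates and has no isoenzyme here, was at 6.08, 6.20, 6.16 and 6.19 without and 5.17, 5.20, 5.24 and 5.22 with HX630, a fall of 1.94-fold (log2 -0.95, SE 0.0381, adjusted p = 6.53e-07).

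Gapdh, which oxidizes glyceraldehyde 3-phosphate and is widely used as a reference gene, had 7 tested probes. Its brightest was at 7.88, 7.93, 7.58 and 7.70 on the controls and 7.30, 7.29, 7.34 and 7.32 with HX630. The groups did not overlap, but the log2 change of -0.46 (SE 0.0785, adjusted p = 0.00148) was under the fold threshold, so Gapdh was not called. The other 6 probes were all called lower, at -0.60, -0.78, -0.88, -0.88, -1.03 and -1.11. With the mean of the 7 probes Gapdh was called at -0.82. The 4 brightest probes had the 4 smallest changes, with 0 saturated spots, and the part of brightness in this was not tested. Over all settings tried, the change of Gapdh ran from -0.82 to -0.17.

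Ldha showed a like spread over its probes, with the smallest change at the brightest. The widest range was that of Pfkp (0.93), whose brighter probe fell more (-1.59 against -0.66). For Gpi1, Tigar and Pgm2l1 too, the brightest probe changed most. Of the 10 genes with more than 1 tested probe, all probes had the same call in 9, and Gapdh was the exception. Over all 54 probes, 36 were called lower and 3 higher, against 11.2% and 7.46% of all probes tested (18.6% in either direction). No gene had probes called in opposite directions.

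**Figure D4:**
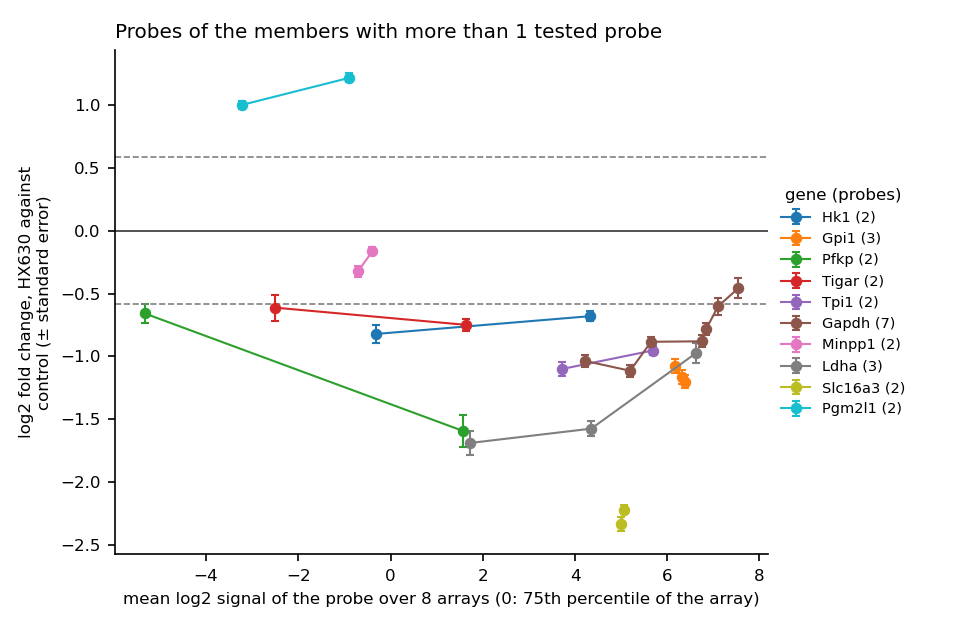
Log2 fold change with standard error (y axis) against the mean log2 signal of the probe over the 8 arrays (x axis) for the 10 genes with more than 1 tested probe; lines join probes of a gene and dashed lines mark the 1.5-fold threshold. The 7 Gapdh probes run from -1.11 to -0.46 and the 3 Ldha probes from -1.69 to -0.97, with the smallest change at the brightest probe in both.

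Pgk1, the first ATP-forming enzyme of the pathway, was at 6.60, 6.78, 6.74 and 6.66 on the control arrays and 5.23, 4.98, 5.19 and 5.00 on the HX630 arrays. It fell 3.02-fold (log2 -1.60, SE 0.0720, adjusted p = 1.09e-06). Phosphoglycerate mutase has a widely expressed form, Pgam1, and a muscle form, Pgam2. Pgam1 was at 6.35, 6.51, 6.47 and 6.44 without and 5.46, 5.48, 5.56 and 5.56 with HX630 and fell 1.90-fold (log2 -0.93, SE 0.0472, adjusted p = 1.94e-06). Pgam2 was dim, at -6.14, -6.03, -5.84 and -6.34 without and -6.18, -6.59, -6.38 and -6.56 with HX630, and well above background on 3 control and 3 HX630 arrays. Its groups overlapped and it was not called (log2 -0.34, SE 0.127, adjusted p = 0.051). Pgam1 minus Pgam2 shifted by -0.59 (exact 97.1% interval -1.14 to -0.19), a difference that did not pass with normexp background correction (-0.17).

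Of the enzymes of 2,3-bisphosphoglycerate, limma put 1 lower and 1 higher at an unadjusted p below 0.05. The share of all genes at that cut was not counted. Neither enzyme of 2,3-bisphosphoglycerate was called by limma or by the methods' t-test. Bpgm, the mutase that makes it, was at 1.19, 1.16, 1.11 and 1.17 on the controls and 1.64, 1.70, 1.62 and 1.66 with HX630, with all HX630 arrays higher (log2 0.50, SE 0.0348, adjusted p = 1.03e-05). With spike-in scaling its change was 0.72 and passed the fold threshold. Minpp1, a phosphatase that can degrade it, had a log2 change of -0.16 (SE 0.0326, adjusted p = 0.00335), which turned to 0.06 with spike-in scaling.

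Enolase makes phosphoenolpyruvate, and all 3 of its genes were called lower. Eno3, the muscle form, was at 5.68, 5.71, 5.55 and 5.60 on the control arrays and 2.81, 2.37, 2.36 and 2.35 on the HX630 arrays, where replicate 1 stood above the others. It fell 8.96-fold (log2 -3.16, SE 0.109, adjusted p = 3.72e-07). Eno2, the form of neurons and neuroendocrine cells, was at 3.97, 4.10, 4.03 and 4.00 without and 3.32, 3.28, 3.23 and 3.28 with HX630, a fall of 1.68-fold (log2 -0.75, SE 0.0395, adjusted p = 2.27e-06) that was not called with spike-in scaling (-0.53). Eno1, the form of most tissues, lay between them (log2 -1.27, SE 0.0822, adjusted p = 6.91e-06). The order held in each pair, with shifts of 2.41 for Eno2 minus Eno3 (exact 97.1% interval 2.03 to 2.64), 1.90 for Eno1 minus Eno3 (1.30 to 2.36) and -0.52 for Eno1 minus Eno2 (-0.75 to -0.22), the last of which was -0.33 with quantile normalization. Pkm, the pyruvate kinase of most tissues and tumors, was at 5.32, 5.66, 5.52 and 5.46 without and 4.52, 4.54, 4.59 and 4.58 with HX630 and fell 1.91-fold (log2 -0.93, SE 0.0696, adjusted p = 1.5e-05). The splice forms of Pkm were not told apart here.

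Lactate dehydrogenase is a tetramer of muscle-type (Ldha) and heart-type (Ldhb) subunits. Ldhb was at -3.20, -3.26, -3.42 and -3.31 on the control arrays and -5.81, -6.71, -6.58 and -6.32 on the HX630 arrays, and fell 8.32-fold (log2 -3.06, SE 0.184, adjusted p = 4.61e-06). Its SD with HX630 was 0.40, the highest of the 37 genes in either group, and the groups were still far apart. Ldha was at 6.96, 7.22, 7.12 and 7.18 without and 6.01, 6.09, 6.28 and 6.22 with HX630 for its brightest probe and fell 1.96-fold (log2 -0.97, SE 0.0781, adjusted p = 2.26e-05). Its other two probes fell further, by 1.57 and 1.69 on the log2 scale. Ldha minus Ldhb shifted by 2.09 (exact 97.1% interval 1.29 to 2.69) with the brightest probe, and by 1.06 with normexp background correction. The change of Ldhb was -2.14 at its smallest over the settings tried.

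The 3 monocarboxylate transporters, like the glucose transporters, did not all fall. Slc16a3 encodes MCT4, the lactate exporter of glycolytic cells, and was at 6.12, 6.21, 6.15 and 6.18 on the controls and 3.96, 3.88, 3.99 and 3.96 with HX630. It fell 4.65-fold (log2 -2.22, SE 0.0384, adjusted p = 5.71e-08), and its second probe by 2.33 on the log2 scale. Slc16a1, which encodes MCT1, fell 1.90-fold (log2 -0.93, SE 0.0677, adjusted p = 1.29e-05). Slc16a7, which encodes the high-affinity carrier MCT2, was at -3.55, -3.53, -3.56 and -3.62 without and -3.13, -3.01, -2.95 and -3.02 with HX630, with all HX630 arrays higher. At a log2 change of 0.54 (SE 0.0452, adjusted p = 2.84e-05) it was not called, although it was with quantile normalization (0.61), the median (0.63) and the spike-in probes (0.76). Slc16a3 minus Slc16a7 shifted by -2.76 (exact 97.1% interval -2.90 to -2.57), Slc16a1 minus Slc16a7 by -1.47 (-1.66 to -1.10) and Slc16a1 minus Slc16a3 by 1.29 (1.06 to 1.52).

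Pgm2l1, which makes glucose 1,6-bisphosphate, the cofactor of phosphoglucomutase, rose more than any other of the 37 genes. It was at -1.45, -1.51, -1.52 and -1.53 on the control arrays and -0.24, -0.30, -0.27 and -0.32 on the HX630 arrays, a rise of 2.32-fold (log2 1.22, SE 0.0359, adjusted p = 2.18e-07). Its second probe rose by 1.00 on the log2 scale.

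The 4 pentose phosphate genes had a median log2 change of 0.35, and for each of them all HX630 arrays were above all control arrays, a pattern held by 28.6% of all genes tested. Pgd, the enzyme of the second NADPH-forming step, was at 0.70, 0.81, 0.71 and 0.72 on the control arrays and 1.40, 1.35, 1.35 and 1.34 on the HX630 arrays. It was called higher at 1.54-fold (log2 0.63, SE 0.0374, adjusted p = 4.46e-06). G6pdx, which opens the pathway and forms NADPH, was at 2.84, 2.85, 2.83 and 2.93 without and 3.06, 3.16, 3.21 and 3.21 with HX630 and was not called (log2 0.30, SE 0.0453, adjusted p = 0.000787). In the non-oxidative branch, which rearranges sugar phosphates, Taldo1 was at 4.67, 4.79, 4.71 and 4.76 without and 5.04, 5.13, 5.21 and 5.20 with HX630 (log2 0.41, SE 0.0490, adjusted p = 0.000204). Taldo1 was not called except with spike-in scaling (0.63) and where no fold threshold was set. Tkt had a log2 change of 0.27 (SE 0.0353, adjusted p = 0.000307) and was not called.

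Neighboring genes of sugar metabolism were counted from 6 further lists. Of 70 genes, 59 were tested, 13 of them called lower and 5 higher, with a median log2 change of -0.14. Over all genes tested the shares called were 11.2% and 8.38%. When probes had to be well above background on all 8 arrays, 13 of the further genes were lower and 4 higher. Slc2a9, well above background on 1 control array, was then left out. With spike-in scaling 10 were called lower and 9 higher, against 6.77% and 16.2% of all genes tested. Of the 8 other pentose phosphate genes tested, 0 were called by limma or by the methods' t-test. At an unadjusted p below 0.05 in limma 3 were higher, and the share of all genes at that cut was not counted. The median of the 8 genes was 0.08.

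Of the genes of glycogen and glucose 1-phosphate, 5 of 18 tested were called lower and 2 higher. Stbd1, a glycogen-binding protein, was at 3.84, 3.98, 4.00 and 3.94 on the control arrays and 2.14, 2.09, 2.03 and 1.98 on the HX630 arrays (log2 -1.88, SE 0.0522, adjusted p = 1.81e-07). Pygm, the muscle glycogen phosphorylase, was at 0.67, 0.57, 0.61 and 0.69 without and -0.49, -0.97, -1.07 and -0.94 with HX630, a log2 change of -1.50 (SE 0.120, adjusted p = 2.12e-05). Both fell with no overlap. The 2 genes called higher were Pygb, another glycogen phosphorylase, and Phkb. Pygb rose by 1.04 on the log2 scale (SE 0.0505, limma adjusted p = 1.52e-06) and Phkb by 0.59 (SE 0.0594, adjusted p = 8.1e-05).

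Of the other sugar and lactate transporters, 4 of 10 were called lower and 2 higher. The 2 called higher were Slc2a9 and Emb, of which Emb rose by 0.97 on the log2 scale (SE 0.0448, limma adjusted p = 1.19e-06). Bsg encodes basigin, the chaperone that brings MCT1 and MCT4 to the plasma membrane, and was at 4.77, 4.76, 4.82 and 4.76 on the controls and 3.54, 3.42, 3.44 and 3.37 with HX630. It fell by 1.33 on the log2 scale (SE 0.0424, adjusted p = 2.7e-07). Slc2a9, a urate carrier, read -6.78, -7.76, -6.78 and -6.83 without and -5.80, -5.68, -5.46 and -5.69 with HX630 and was called higher (log2 1.38, SE 0.224, adjusted p = 0.0011), but it was well above background on 1 control array, and its change was 0.05 and not called with normexp background correction.

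Of the 6 other glycolytic isoenzymes tested, 1 was called lower and 1 higher. Hk3, a hexokinase of blood cells, was at -5.94, -6.07, -6.12 and -6.13 without and -5.08, -4.88, -5.07 and -4.95 with HX630 (log2 1.07, SE 0.0645, adjusted p = 4.72e-06). It was dim, and with normexp background correction it was not called, at 0.22. Pgk2, the phosphoglycerate kinase of testis, fell by 0.96 on the log2 scale (SE 0.136, adjusted p = 0.000527), from -4.34, -4.48, -4.58 and -4.36 on the control arrays to -5.06, -5.35, -5.73 and -5.45 on the HX630 arrays. Of 7 gluconeogenic genes, 2 were called lower. Pcx, pyruvate carboxylase, fell by 0.81 on the log2 scale (SE 0.0346, adjusted p = 8.65e-07), from 2.73, 2.73, 2.79 and 2.77 on the control arrays to 1.99, 1.90, 1.95 and 1.94 on the HX630 arrays. Fbp2, the muscle fructose bisphosphatase, fell by 0.76 (SE 0.0321, adjusted p = 8.04e-07), from -1.28, -1.26, -1.25 and -1.28 on the control arrays to -1.98, -2.06, -2.04 and -2.05 on the HX630 arrays, a call lost with spike-in scaling (-0.54). Of 10 branch enzymes, 1 was called, Galk1, the galactokinase, which was at 2.38, 2.67, 2.64 and 2.54 without and 1.55, 1.61, 1.66 and 1.57 with HX630 and fell by 0.97 on the log2 scale (SE 0.0683, adjusted p = 1.1e-05).

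**Figure D5:**
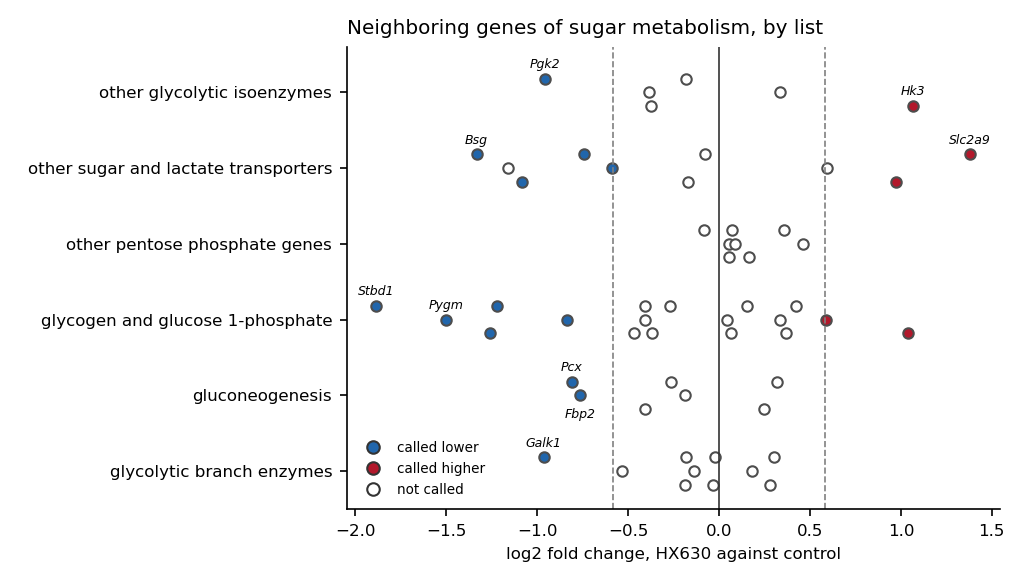
Log2 fold change (HX630 against control, n = 4 arrays per group) of the 59 tested genes of the 6 further lists, 1 row of points per list, filled where called lower (blue) or higher (red); dashed lines mark the 1.5-fold threshold, points are offset vertically to be seen, and labels name up to 2 called genes per list. Of the 59 genes 13 are called lower and 5 higher, and all 8 points of the other pentose phosphate genes lie between the dashed lines.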

How the data were processed

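Total RNA of 8 samples (4 control, 4 HX630) was labeled with Cy3 and hybridized to Agilent mouse 4x44K arrays. Agilent Feature Extraction 10.7.3.1, as the submitters' processing notes name it, gave the deposited processed intensity of each spot, background-subtracted and detrended without scaling between arrays, and the median intensities of spot and local background. A further table of log2 values came from the authors' work in GeneSpring. It equaled the log2 processed signal, lowered by each array's 75th percentile, to within 0.00125, so its scale, centring and direction are known. Its column medians were -3.68, -3.82, -3.80 and -3.82 for control replicates 1 to 4 and -3.80, -3.85, -3.89 and -3.91 for HX630 replicates 1 to 4.

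In R 4.3.3, the 44397 spots were reduced by 1377 control spots and by outlier spots, log2 signals were lowered by the 75th percentile of the array, and spots were averaged to 39429 probes. The 28552 probes well above background on at least 4 of 8 arrays were compared with limma 3.58.1 (lmFit, eBayes, no block), with Benjamini-Hochberg adjustment over all of them. Calls were made where the adjusted p was below 0.01 and the fold change was above 1.5. The methods gave the same thresholds with a t-test and named no adjustment of its p. The methods' t-test was an alternative, without and with adjustment. RefSeq accessions of the probes were matched, without versions, to a table on GRCm38.p6 for 26055 probes (66.1%) and 19751 symbols. The array design uses another build, so this table served for names and promoter windows alone. Probe sequences were not used here, and binding to related transcripts was not tested. The brightest tested probe stood for a gene. A probe below background on a whole group was given as a bound, from group means with each array's lowest signal among probes well above background as its floor. The code was tested on simulated data.

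Values per array are given for the gene of each step with the largest change and for its farthest isoenzyme, and of each further list for up to 2 called genes. G6pdx was added to these after its values were seen. A gene of the further lists is not reported here and was left out of their counts. The genes, lists and tests were chosen with earlier results of these data known. The number of arrays limits the precision; the median SE was 0.066 on the log2 scale. Normexp background correction (offset 16), planned on the mean spot intensity, was run on the median.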

Additional observations from a re-analysis of the deposited data

Results flagged for a closer look

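In 8 of 92 groups of 4 arrays, 1 array stood apart from the others by Dixon's ratio of its gap to the range of the group (above its 95% critical value). At 1 in 20, chance gives 4.6 such groups. In the HX630 group, replicate 1 was apart for Pfkfb3 (0.8595, -8.50 against a mean of -8.99 of the others, all below background), Eno3 (0.9564, 2.81 against 2.36) and Slc16a1 (0.8803, -3.64 against -3.86). HX630 replicate 4 was apart for Hk1 (0.8944, 4.07 against 3.97) and Tkt (0.8547, 4.83 against 4.91), and HX630 replicate 3 for Minpp1 (0.9356, -0.51 against -0.46). Among the controls, replicate 2 was apart for Pgd (0.8357, 0.81 against 0.71) and Slc2a9 (0.9502, -7.76 against -6.80). No cause of these gaps was tested.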

How the results depend on the processing

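Of the 37 genes, 18 (spike-in scaling) to 24 (no fold threshold) were called lower, against 21, and 21 whichever array was left out. The count called higher was 2, and 4 with quantile normalization, 4 with median scaling, 6 with spike-in scaling and 10 with no fold threshold, or 2 to 3 with each array left out. Over all probes, 3184 were lower and 2131 higher; the splits were 2657 and 2831 with median scaling, 2732 and 2714 with quantile normalization, 1907 and 4146 with spike-in scaling, and 7245 and 5763 with no fold threshold, and normexp gave 1355 higher. With each array left out these counts ran from 2879 to 3369 and from 1944 to 2568. The further lists had 23 lower and 14 higher with no fold threshold, 9 higher with spike-in scaling, 2 higher with normexp, and 12 to 13 lower and 4 to 6 higher with each array left out. Of the 22 isoenzyme pairs, 13 to 18 were apart over the settings and 17 to 19 with each array left out. The methods' t-test called 21 and 2 of the 37 genes both unadjusted and after Benjamini-Hochberg adjustment, and over all probes 3127 and 2110, or 2883 and 1981 adjusted.

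Signs that turned belonged to genes or pairs that were not called. Aldoc turned with quantile normalization (0.013) and spike-in scaling (0.095), Minpp1 with spike-in scaling (0.057), Pfkl minus Pfkp with normexp (0.032; -0.088 to 0.049 with each array left out) and Pfkfb1 minus Pfkfb4 with normexp (-0.044; -0.018 to 0.021). Causes were not tested. The replicate numbers were not taken as pairs, since nothing in the labels ties them and not every pair of same-numbered arrays correlated above 0.1 in its deviations: 3 of 4 pairs did (0.243 to 0.523), replicates 2 did not (-0.0093), and 5 of 8 arrays correlated best with their own number, a hint of shared deviation in the data. With the replicate number as a block, 21 of the 37 genes were lower and 2 higher, and 3345 and 2210 of all probes. Dim genes (Pfkfb3, Pgam2, Hkdc1, Ldhb, Slc2a9, Hk3) are limited by signal over background.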
